A study of Mus musculus with 17 samples.

Results

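Transcripts of 7 genes that encode mouse Fc receptors and antibody transporters were followed in 12 RNA sequencing libraries of cells sorted from tumor-bearing lungs: Fcgr1, Fcgr3, Fcgr4, Fcgr2b, Fcer1g, Fcgrt and Pigr. The genes were taken by symbol, and all 7 had a row in each of the 3 deposited tables, out of 17555 genes listed in at least 1 table. KL mice carried KrasLSL-G12D/+ and Lkb1fl/fl, and KLG4 mice carried these alleles together with Gpx4m/m, a knock-in from which Gpx4 exons are removed by a Dre recombinase that needs both Cre and tamoxifen. All mice received Ad-Cre by the nose, which starts the tumors, and then tamoxifen, KL mice included, and lungs were taken 10 weeks after Ad-Cre. Tumor cells (gated in the study as EpCAM-positive cells without CD31 and CD45), TRMs and MDMs (sorted populations whose abbreviations the labels do not spell out) gave 4 libraries each, 2 of them KL and 2 KLG4. Before staining, cells were incubated with an antibody against the products of Fcgr3 and Fcgr2b. Per the methods of the study, mice were between 8 and 10 weeks old at Ad-Cre and matched for sex between genotypes. The gates for TRMs and MDMs are not given in the sources used here.

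Fc receptors bind the constant part of antibodies. The activating IgG receptors of the mouse are the high-affinity receptor encoded by Fcgr1 and the lower-affinity receptors encoded by Fcgr3 and Fcgr4, all of which signal through the adaptor encoded by Fcer1g, the common gamma chain with its ITAM motif. Fcgr2b encodes the inhibitory IgG receptor, which carries an ITIM motif and opposes them. Fcgrt encodes the heavy chain of the neonatal Fc receptor, which pairs with beta-2 microglobulin and returns IgG and albumin from endosomes to the surface, and Pigr encodes the receptor that carries dimeric IgA and pentameric IgM across epithelial cells. In lung, macrophages, monocytes and neutrophils are known for the former group and airway epithelium for Pigr.

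Fcgr2b (chr1:170958617-170976547, minus strand), Fcgr4 (chr1:171018920-171029761, plus strand), Fcgr3 (chr1:171051174-171064935, minus strand) and Fcer1g (chr1:171229572-171234365, minus strand) lie close together on chromosome 1 of GRCm38. Pigr (chr1:130826684-130852249, plus strand) is on the same chromosome, Fcgr1 (chr3:96282909-96293969, minus strand) on chromosome 3 and Fcgrt (chr7:45092990-45103851, minus strand) on chromosome 7. All are protein-coding. Promoter windows from RefSeq (GRCm38.p6), of 300 bases with 250 of them before the start, were found for 7 of 7 genes. The 120 bases before the start are shown for the activating receptors and for Pigr, whose pattern was apart from theirs. In tumor cells the levels of the activating receptors moved together, but Fcgr2b, Fcer1g and Fcgrt, which are not shown, moved with them. Capitals mark GAGGAA on either strand (the core letters bound by PU.1, a myeloid factor), TTCNNNGAA (STAT letters), GAAANNGAAA (letters of interferon response elements) and CACGTG (an E-box), none of which overlap here.
Fcgr1 (chr3:96293970-96294089, minus strand): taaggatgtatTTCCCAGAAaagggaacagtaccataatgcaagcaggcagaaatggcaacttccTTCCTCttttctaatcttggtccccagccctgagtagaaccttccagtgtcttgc
Fcgr3 (chr1:171059395-171059514, minus strand, the second of 2 listed starts): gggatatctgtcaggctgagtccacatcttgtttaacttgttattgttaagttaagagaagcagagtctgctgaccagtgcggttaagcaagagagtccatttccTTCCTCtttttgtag
Fcgr4 (chr1:171018806-171018925, plus strand): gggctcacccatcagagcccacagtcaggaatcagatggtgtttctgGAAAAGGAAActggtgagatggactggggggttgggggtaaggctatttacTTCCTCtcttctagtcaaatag
Pigr (chr1:130826564-130826683, plus strand): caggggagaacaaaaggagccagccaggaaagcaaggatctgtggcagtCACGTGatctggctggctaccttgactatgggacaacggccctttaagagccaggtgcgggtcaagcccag
The letters of GAGGAA stood, on the other strand, before the start in Fcgr1, Fcgr3 and Fcgr4 and in no window of the other 4 genes, and 28.3% of all 32851 windows held them. TTCNNNGAA was held by the windows of Fcgr1 and Pigr (in Pigr after the start) and by 8.3% of all windows, GAAANNGAAA by Fcgr4 and 3.44%, and CACGTG by Pigr and 7.15%. Such matches describe the letters only.

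Fcgr2b and Fcgr3 share coding sequence, which limits how well reads of the pair can be told apart. Of all pairs among the 7 genes, only this pair had a shared stretch of 50 coding bases, and such stretches made up 22.1% of those of Fcgr3 and 17.1% of those of Fcgr2b. The longest identical run, bases 278 to 406 of the Fcgr2b coding sequence and 263 to 391 of that of Fcgr3, is shown because the part of a read inside it does not tell the genes apart:
Fcgr2b and Fcgr3: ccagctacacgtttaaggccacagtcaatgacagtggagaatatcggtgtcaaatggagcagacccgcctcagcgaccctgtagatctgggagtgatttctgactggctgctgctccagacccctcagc
The run is 129 bases long, and reads were 150 bases long. Antisense genes overlap Fcgr2b and Fcgrt in the annotation, and the libraries did not keep strand, so their reads cannot be separated.

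Depth was 9.14e+06 to 3.66e+07 counted reads per library, and values are RPKM (reads scaled by the length of the gene and by the counted reads of the library). Gpx4, the targeted gene, was at 94.95 and 76.8 RPKM in KL and at 56.4 and 61.9 RPKM in KLG4 tumor cells. Its adjusted p there was 0.036 (limma with Benjamini-Hochberg adjustment, as throughout). Gpx4 was also lower in KLG4 TRMs (89.8 and 88.2 RPKM in KL, 53.8 and 57.0 RPKM in KLG4, adjusted p = 0.070) but higher in KLG4 MDMs (44.9 and 71.3 RPKM in KL, 93.6 and 97.7 RPKM in KLG4, adjusted p = 0.679), neither of which passed the threshold. The KLG4 tumor cell libraries were much closer to each other than any other pair, with a chi-square statistic per gene of 3.28 against 28.9 to 131.6 elsewhere, and each tumor library held both Xist and the Y-linked Eif2s3y, so that p-values in tumor cells measure the spread between these samples, which may be technical. TRM libraries differed in sex with genotype (Xist at 0.257 and 0.501 RPKM in KL and at 18.3 and 20.2 RPKM in KLG4), and the effects of sex and genotype cannot be told apart there. The libraries labelled MDMs held neutrophil markers at a summed 11043 to 24201 RPKM, with S100a9 at 9379 RPKM or more, while Ccr2 was at 1.31 to 8.70 RPKM and Ly6c2 below 1 RPKM, so the label is used here only as a name. KL replicate 2 of the MDMs stood apart, with C1qa at 92.7 RPKM against 15.96 to 24.4 RPKM in the other MDM libraries, and Xist at 0.839 RPKM against 19.4 to 21.8 RPKM.

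In tumor cells, all 7 genes were higher in both KLG4 libraries than in both KL libraries, which was the case for 32.5% of the genes tested in that table. Of the 7 genes, 6 passed the filter on low values (at least 1 RPKM in at least 2 of 4 libraries). Of these, 4 passed it through both groups, and Fcgr4 and Fcgr2b only through the KLG4 libraries. The 6 tested genes were called higher at an adjusted p under 0.05, as were 20.6% of the 13770 genes tested. The calls of Fcgr4 and Fcgr2b follow in part from the filter. The ratio of mean RPKM was 7.85 to 11.6 for the tested receptors, the gamma chain and Fcgrt, and 2.04 for Pigr. The plot of levels by library shows the 3 populations side by side.

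**Figure D1:**
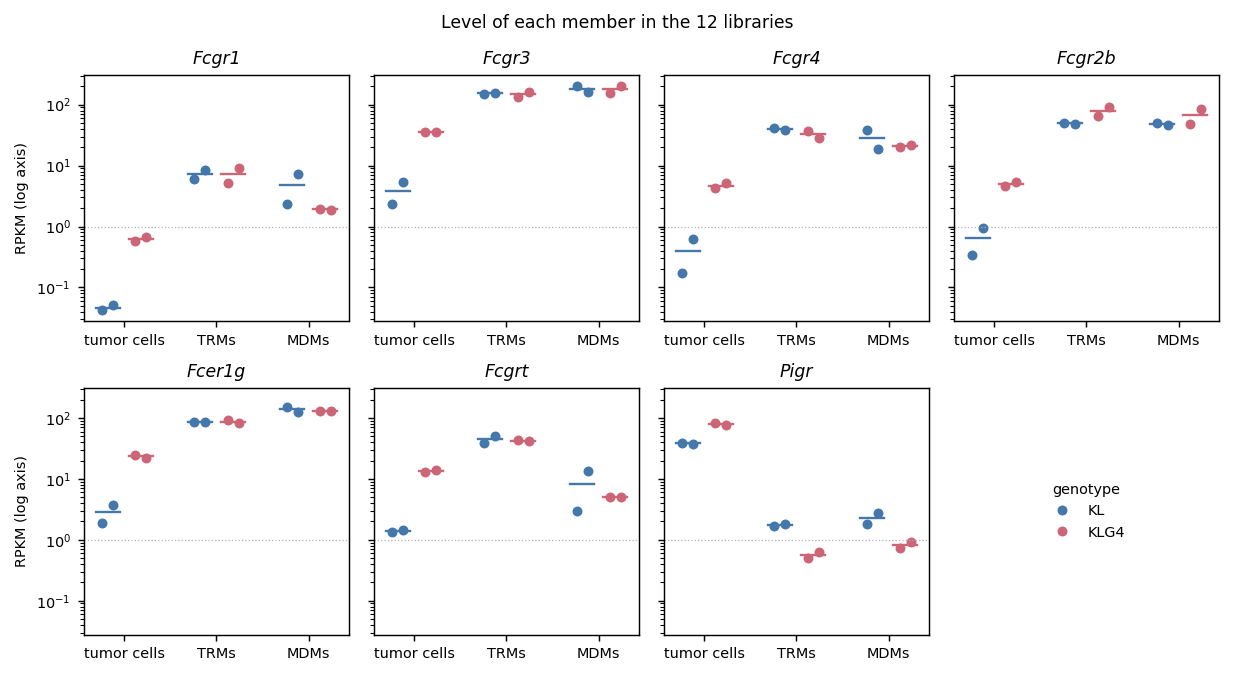
RPKM (log axis) of each gene in the 12 libraries, by population, with KL in blue and KLG4 in red; each point is 1 library, each bar a group mean of 2 libraries, and the dotted line is 1 RPKM. In tumor cells the KLG4 points lie above the KL points for all 7 genes, and Pigr is the only gene with its highest values in tumor cells.

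Among the activating receptors, Fcgr3 had the highest level in tumor cells. It was at 2.34 and 5.31 RPKM in the KL libraries and at 36.2 and 35.9 RPKM in the KLG4 libraries. The ratio of means was 9.41, and the log2 fold change on the log2(RPKM + 0.1) scale was 3.31 (standard error 0.37, adjusted p = 0.00195). The groups were far apart, and the KL libraries differed from each other more than the KLG4 libraries did.

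Fcgr4, the receptor for IgG2 subclasses, was at 0.174 and 0.632 RPKM in KL and at 4.24 and 5.10 RPKM in KLG4 tumor cells. Its log2 fold change was 3.41 (standard error 0.48, adjusted p = 0.00426). The KL values rested on 8 and 24 reads, so the size of this ratio is uncertain. Fcgr1 was lower still, at 0.0422 and 0.0511 RPKM in KL (4 reads in each library) and at 0.569 and 0.679 RPKM in KLG4 (26 and 28 reads). It did not pass the filter and was not tested, and the groups did not overlap.

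The gamma chain gene Fcer1g was at 1.91 and 3.78 RPKM in KL and at 24.6 and 22.3 RPKM in KLG4 tumor cells. The log2 fold change was 3.07 (standard error 0.32, adjusted p = 0.00158). The inhibitory receptor gene Fcgr2b was at 0.344 and 0.931 RPKM in KL and at 4.69 and 5.32 RPKM in KLG4. Its log2 fold change was 2.91 (standard error 0.42, adjusted p = 0.0045). Both values of Fcgr2b in KLG4 were above those in KL, as for the activating receptors. For all 4 IgG receptor genes and Fcer1g, KL replicate 2 was the higher of the KL libraries.

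Fcgrt was at 1.33 and 1.43 RPKM in KL and at 12.99 and 14.2 RPKM in KLG4 tumor cells. The ratio of means was 9.87, and the log2 fold change was 3.21 (standard error 0.16, adjusted p = 0.000248). In contrast to those of Fcgr3, Fcgr4 and Fcgr2b, its KL libraries were nearly equal. B2m, which encodes its light chain, was at 56.1 and 49.6 RPKM in KL and at 142 and 144 RPKM in KLG4, a log2 fold change of 1.44. The ratio of Fcgrt to B2m within a library was 0.0236 and 0.0288 in KL and 0.0915 and 0.0989 in KLG4, so Fcgrt differed more than its partner.

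Pigr was the member with the highest level in tumor cells. It was at 39.5 and 38.1 RPKM in KL and at 81.9 and 76.5 RPKM in KLG4. The log2 fold change was 1.03 (standard error 0.11, adjusted p = 0.00174). Epcam, the epithelial gene used for the gate, went the other way, with 638 and 420 RPKM in KL against 215 and 211 RPKM in KLG4. The ratio of Pigr to Epcam within a library was thus 0.0619 and 0.0907 in KL against 0.382 and 0.362 in KLG4. Secretory airway markers were higher, with 6 of 8 called, and included Scgb1a1, the main club cell secretory protein (3128 and 3848 RPKM in KL, 6332 and 6483 RPKM in KLG4) and Bpifb1 (2.95 and 4.70 RPKM in KL, 20.4 and 24.5 RPKM in KLG4). AT2 markers (surfactant genes and others of that cell type) were lower, with 10 of 10 called. The part of these marker genes in the Pigr difference was not tested.

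Leaving out a KLG4 library of tumor cells ended some calls, while the fold changes hardly differed. Without KLG4 replicate 1, 5 of the 6 genes were called, and Pigr had a log2 fold change of 0.98 (adjusted p = 0.0537). Without KLG4 replicate 2, 4 were called, and the log2 fold change was 2.82 for Fcgr2b (adjusted p = 0.057) and 3.28 for Fcgr4 (adjusted p = 0.053). Leaving out either KL library changed none of the 6 calls but moved the fold changes more. Without KL replicate 1 and without KL replicate 2 respectively, the log2 fold change was 2.74 and 3.89 for Fcgr3, 2.70 and 4.12 for Fcgr4, 2.30 and 3.52 for Fcgr2b and 2.60 and 3.55 for Fcer1g, so the size of these differences is known only roughly. With a pseudocount of 1 RPKM it was 2.03 for Fcgr4, 1.90 for Fcgr2b and 2.62 for Fcgrt.

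Genes of leukocytes differed in the same direction in these libraries, although the gate was meant to leave leukocytes out. All 10 leukocyte markers were called higher in KLG4 tumor cells, and their summed level was 25.6 and 36.6 RPKM in KL and 323 and 325 RPKM in KLG4. Ptprc, which encodes CD45, was at 0.834 and 2.06 RPKM in KL and at 26.7 and 27.4 RPKM in KLG4. Neutrophil markers (9 of 9 tested called higher, summed level 192 and 298 RPKM in KL and 2383 and 2291 RPKM in KLG4) and monocyte-derived macrophage markers (8 of 8, summed 6.48 and 8.58 RPKM against 90.7 and 86.5 RPKM) were higher too. Of 9 alveolar macrophage markers tested, 6 were called higher, and the summed level of all 9 was 50.3 and 69.0 RPKM in KL and 401 and 409 RPKM in KLG4. In KLG4 most of that sum was Chil3 (191 and 193 RPKM) and Ear2 (132 RPKM in both libraries). The other 3 (Pparg, Krt79 and Fabp4) were below KL in both KLG4 libraries and not called, with Pparg at 8.18 and 4.49 RPKM in KL and at 3.63 and 4.08 RPKM in KLG4. Fibroblast markers were also higher (8 of 8 called, summed 11.4 and 16.2 RPKM against 380 and 379 RPKM). T cell (6 of 6 tested), B cell (3 of 3), dendritic cell (4 of 4) and some endothelial (3 of 5) markers were called higher as well, but those of T cells, B cells and dendritic cells passed the filter only through KLG4, where they are high, so their counts follow from the filter. This was also so for 4 fibroblast, 4 monocyte-derived macrophage, 3 leukocyte, 2 neutrophil and 1 alveolar macrophage marker. Among the remaining lists, no ciliated cell marker was called (6 tested), 1 of 2 mast cell and basophil markers was called lower, and no NK cell marker passed the filter. In such bulk samples, fewer cells of a type and less RNA per cell cannot be told apart. The part of these cells in the differences of the 6 genes was not tested.

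The proportion of Fcer1g to a leukocyte gene depended on the gene chosen. With a log2 fold change of 3.07 in tumor cells, Fcer1g was within the range of the 10 leukocyte markers, which had Cd53 at 2.12, Lcp1 at 2.49 and Cd48 at 3.01 as the lowest and Arhgdib at 4.53 as the highest. The ratio of Fcer1g to Ptprc was 2.29 and 1.83 in KL tumor cells and 0.919 and 0.815 in KLG4 tumor cells, without overlap. In TRMs, too, it was lower in KLG4, at 2.75 and 2.05 in KL and at 1.24 and 1.10 in KLG4. The same held in MDMs, at 1.48 and 1.32 in KL and at 1.17 and 1.21 in KLG4. The ratio of Fcer1g to Tyrobp, another ITAM adaptor of myeloid cells, was 0.461 and 0.519 in KL and 0.406 and 0.333 in KLG4 tumor cells.

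Other genes of the pathway were counted over lists chosen by function. Of 15 genes of activating ITAM signalling, 13 were called higher in KLG4 tumor cells and none lower, with a median log2 fold change of 3.30 against -0.09 over all genes tested, and 4 of the 15 passed the filter only through KLG4. Syk, the kinase that binds phosphorylated ITAMs, was at 1.78 and 4.35 RPKM in KL and at 42.3 and 42.2 RPKM in KLG4. Pik3ap1, an adaptor of phosphoinositide 3-kinase, was at 5.05 and 14.9 RPKM in KL and at 173 and 177 RPKM in KLG4. Lyn, the kinase that phosphorylates ITAMs and ITIMs, was at 4.86 and 6.92 RPKM in KL and at 26.9 and 27.6 RPKM in KLG4, and Vav1, an exchange factor downstream of Syk, at 0.741 and 1.76 RPKM in KL and at 15.5 and 15.1 RPKM in KLG4. Of 8 genes of inhibitory ITIM signalling, 5 were called higher and none lower, with a median of 0.65, and 3 of those 5 (Inpp5d, Dok2 and Dok3) passed the filter only through KLG4. Inpp5d, the inositol phosphatase recruited by the Fcgr2b ITIM, was at 0.187 and 0.687 RPKM in KL and at 10.0 and 9.66 RPKM in KLG4, and Dok3, an adaptor, at 0.972 and 0.577 RPKM in KL and at 9.27 and 8.09 RPKM in KLG4. The phosphatase gene Ptpn6 (18.8 and 21.6 RPKM in KL, 34.4 and 32.4 RPKM in KLG4) and the kinase gene Csk (7.80 and 8.18 RPKM in KL, 12.5 and 11.3 RPKM in KLG4) differed less. Ptpn11 and Inppl1 had adjusted p values of 0.562 and 0.312. Dok1 went the other way, at 3.41 and 2.24 RPKM in KL and at 1.83 and 1.14 RPKM in KLG4 (adjusted p = 0.079).

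Of 10 partners of the members, 6 were in the tumor cell table and all 6 were called higher, Hcst through the KLG4 libraries alone, among them Clec4d and Clec4e, C-type lectins that signal through the gamma chain. Clec4d was at 5.33 and 8.58 RPKM in KL and at 119 and 120 RPKM in KLG4, and Clec4e was at 2.25 and 5.42 RPKM in KL and at 45.9 and 46.9 RPKM in KLG4. Of 13 other Fc receptor genes, 6 were listed and 3 were called higher, all of them through the KLG4 libraries alone: Fcmr, the IgM receptor, Fcrls and Fcgbp, which encodes an IgG-binding mucus protein. Trim21, the cytosolic antibody receptor, was at 3.33 and 6.18 RPKM in KL and at 5.34 and 3.55 RPKM in KLG4, with overlap. Fcamr, a receptor for IgA and IgM, overlapped too, at 2.30 and 3.70 RPKM in KL and at 4.06 and 2.43 RPKM in KLG4. Fcrlb was analysed in the TRM and MDM tables only. Fcer1a and Ms4a2, which form the IgE receptor together with the gamma chain, were not analysed here.

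The antibodies that these receptors bind were also seen as transcripts. All 8 antibody chain genes on the list were called higher in KLG4 tumor cells, with a median log2 fold change of 7.13. Of these, 5 passed the filter through the KLG4 libraries alone, so their calls, and in part the median, follow from the filter. Ighg2b was at 0.326 and 2.31 RPKM in KL and at 159 and 161 RPKM in KLG4. Ighg2c was at 0.947 and 8.60 RPKM in KL and at 190 and 188 RPKM in KLG4. Igha was at 0.287 and 0.905 RPKM in KL and at 118 and 122 RPKM in KLG4, and Ighm at 0.579 and 2.80 RPKM in KL and at 177 and 173 RPKM in KLG4. Jchain, the joining chain that Pigr needs to bind IgA and IgM, was at 0.304 and 0.631 RPKM in KL and at 101 and 112 RPKM in KLG4. The 5 plasma cell markers tested, Jchain again among them, were called higher too. All of them had a level past the filter in KLG4 alone, so this count follows from the filter. The IgG subclass genes resemble one another, so reads may have been split among them.

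Of 14 genes of endosomal recycling and transcytosis, 12 were tested in tumor cells, 1 was called higher and 6 were called lower, against 20.6% and 19.6% of all genes tested, with a median log2 fold change of -0.47. Rab11a, a GTPase of recycling endosomes, was at 45.0 and 35.02 RPKM in KL and at 23.1 and 21.1 RPKM in KLG4. Myo5b, the motor that acts with it, was at 14.8 and 21.8 RPKM in KL and at 8.90 and 9.84 RPKM in KLG4. Snx4, a sorting nexin, was at 80.7 and 87.0 RPKM in KL and at 41.1 and 41.3 RPKM in KLG4. Rab11fip1, an effector of Rab11, was the gene called higher, at 29.8 and 32.6 RPKM in KL and at 41.3 and 41.6 RPKM in KLG4. Rab3d was at 6.10 and 6.42 RPKM in KL and at 8.48 and 6.78 RPKM in KLG4 and was not called.

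**Figure D2:**
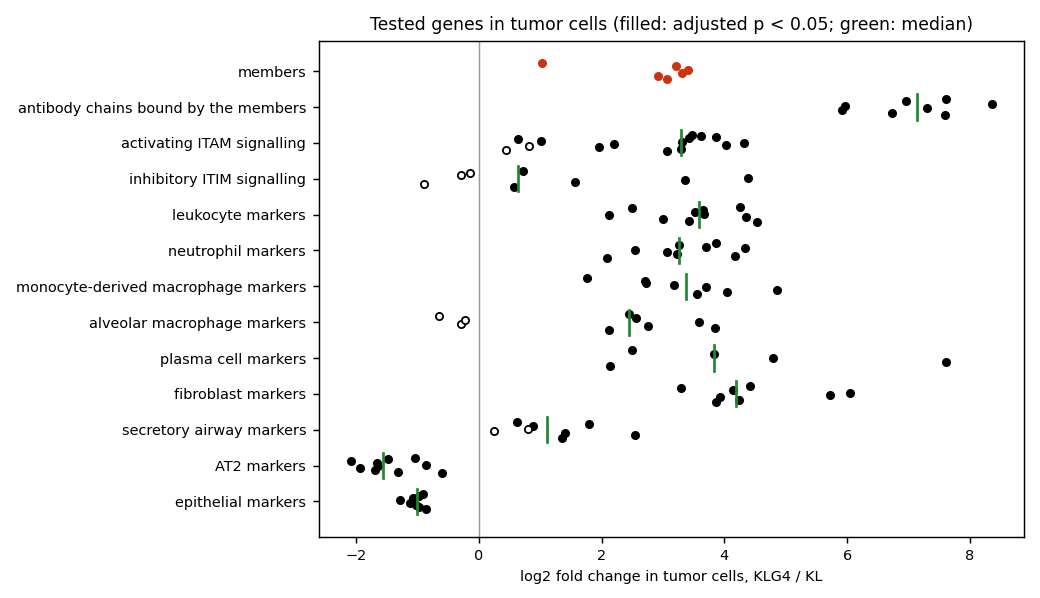
Log2 fold change of KLG4 against KL tumor cells on the x axis for each tested gene of the lists named on the y axis; red points are the 6 tested members, filled points passed an adjusted p under 0.05 and green bars are list medians. The members other than Pigr lie between 2.91 and 3.41, within the range of the leukocyte markers, while the AT2 and epithelial markers lie below 0.

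In TRMs, none of the 7 genes was called, while 1.8% of the 10990 genes tested in that table were. At an unadjusted p under 0.05, 2 of the 7 genes passed, as did 28.3% of genes. Over the whole TRM table, the median log2 fold change was 0.38. In these libraries mitochondrial genes took 31.5% and 22.3% of reads in KL and 2.95% and 5.78% in KLG4, so fold changes are given here also relative to that median. That share was 7.38% and 8.26% in KL and 14.8% and 14.7% in KLG4 tumor cells. For MDMs it was 2.75% and 7.31% in KL and 0.921% and 1.33% in KLG4.

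Fcgr3 was at 151 and 157 RPKM in KL and at 136 and 163 RPKM in KLG4 TRMs, with overlapping groups and a log2 fold change of -0.05. Fcer1g, at 85.4 and 86.9 RPKM in KL and at 92.3 and 81.6 RPKM in KLG4, had a log2 fold change of 0.01. Fcgrt was at 39.6 and 50.6 RPKM in KL and at 44.2 and 41.2 RPKM in KLG4, and Fcgr1 at 6.10 and 8.62 RPKM in KL and at 5.19 and 9.13 RPKM in KLG4, both with overlap. Relative to the table median, the log2 fold changes were -0.43 for Fcgr3, -0.37 for Fcer1g, -0.45 for Fcgrt and -0.45 for Fcgr1. That of Fcer1g fell below 0 under quantile, TMM and mitochondrial rescaling and on recovered reads.

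In TRMs, KLG4 values of Fcgr2b lay above and those of Fcgr4 below the KL values. Fcgr2b was at 50.04 and 48.9 RPKM in KL and at 66.4 and 91.1 RPKM in KLG4, above KL in both libraries, as were 53.7% of genes. Its log2 fold change was 0.65 (standard error 0.20, adjusted p = 0.113), or 0.27 relative to the table median. Without KLG4 replicate 2 it was 0.42 before the median was subtracted, and the table median was then 0.40. Fcgr4 was at 41.9 and 39.0 RPKM in KL and at 37.2 and 28.7 RPKM in KLG4, below KL in both libraries, as were 8.96% of genes. The log2 fold change was -0.31 (standard error 0.19, adjusted p = 0.339), or -0.69 relative to the median. Before the median was subtracted, it was -0.49 without KLG4 replicate 1 and -0.12 without KLG4 replicate 2. The table medians were then 0.37 and 0.40. Neither difference passed the adjusted threshold.

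Pigr was low in TRMs, with KLG4 values below KL values. It was at 1.69 and 1.85 RPKM in KL and at 0.510 and 0.634 RPKM in KLG4, and passed the filter only through KL. Its log2 fold change was -1.48 (standard error 0.44, adjusted p = 0.105). With limma-voom on recovered reads the adjusted p was 0.0267. AT2 markers, genes of alveolar epithelium, had a summed level of 171 and 182 RPKM in KL and of 36.1 and 69.8 RPKM in KLG4 TRMs, and their part in the Pigr difference was not tested.

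In TRMs none of the tested genes of these lists was called (15 of activating and 8 of inhibitory signalling, 6 partners, 4 other Fc receptors and 7 of transport). The median log2 fold change was 0.40 for activating signalling, 0.45 for inhibitory signalling, 0.37 for transport, 0.10 for partners and 0.78 for other Fc receptors, against 0.38 over all genes. Syk was at 35.3 and 42.0 RPKM in KL and at 73.1 and 63.1 RPKM in KLG4 (adjusted p = 0.070). Of the 8 antibody chains 2 were tested, and neither was called. Ighg2c was at 3.47 and 1.49 RPKM in KL and at 0.169 RPKM and 0 in KLG4 (adjusted p = 0.065).

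In MDMs, none of the 7 genes was called, and 0% of the 10475 genes tested were. At an unadjusted p under 0.05, 1 of the 7 genes passed (Pigr), as did 6.74% of genes, and limma-voom on recovered reads called none either.

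Fcgr3 was at 205 and 159 RPKM in KL and at 154 and 203 RPKM in KLG4 MDMs, and Fcer1g at 153 and 124 RPKM in KL and at 128 and 129 RPKM in KLG4. The genotypes overlapped for both genes, with log2 fold changes of -0.03 and -0.10. Fcgr4 was at 38.7 and 19.0 RPKM in KL and at 20.1 and 21.8 RPKM in KLG4. Fcgr2b was at 50.7 and 46.9 RPKM in KL and at 48.3 and 85.2 RPKM in KLG4, and its log2 fold change of 0.39 came to -0.014 without KLG4 replicate 2.

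Fcgr1 and Fcgrt depended on the library that stood apart. Fcgr1 was at 2.37 and 7.33 RPKM in KL and at 1.97 and 1.86 RPKM in KLG4, and its log2 fold change was -1.09 with all libraries and -0.30 without KL replicate 2. Fcgrt was at 2.95 and 13.4 RPKM in KL and at 5.001 and 4.95 RPKM in KLG4, and its log2 fold change was -0.34 with all libraries and 0.74 without KL replicate 2. That library also had the highest C1qa and Cx3cr1 of the MDM libraries. Without KL replicate 1, so that KL replicate 2 alone stood for KL, 3 members were called lower (Fcgr1, Fcgrt and Pigr), as were 2682 genes in either direction over the table.

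Pigr was at 1.85 and 2.73 RPKM in KL and at 0.724 and 0.916 RPKM in KLG4 MDMs, below KL in both libraries, as were 19.1% of genes. The log2 fold change was -1.36 (standard error 0.36, adjusted p = 0.679), and it passed the filter only through KL. The summed AT2 markers were at 159 and 381 RPKM in KL and at 41.8 and 75.2 RPKM in KLG4, and their part was not tested. No gene of the signalling, partner, antibody and transport lists was called in MDMs, where the median log2 fold change was 0.28 for activating and 0.17 for inhibitory signalling against 0.02 over all genes.

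**Figure D3:**
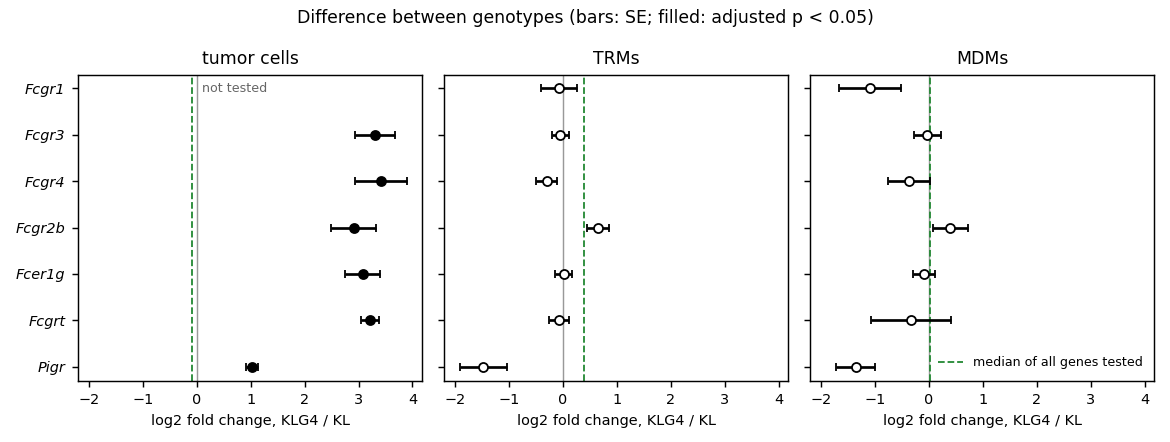
Log2 fold change of KLG4 against KL (x axis) for each of the 7 genes in tumor cells, TRMs and MDMs; points are estimates, bars are standard errors, filled points have an adjusted p under 0.05 and the green dashed line is the median of all genes tested in that table. The tested members lie right of the median in tumor cells. In TRMs and in MDMs every member except Fcgr2b lies left of it, with Pigr the furthest.

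The make-up of the IgG receptor transcripts was compared within libraries, which is independent of scaling between them. Of the summed RPKM of Fcgr1, Fcgr3, Fcgr4 and Fcgr2b, Fcgr3 took 76.4% to 80.7% in tumor cells, 55.6% to 62.0% in TRMs and 65.1% to 69.0% in MDMs. Fcgr1 took 0.595% to 3.39% over the 12 libraries. Fcgr2b took 19.3% to 31.2% in TRMs and 10.3% to 13.4% in tumor cells.

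The ratio of the activating receptors (Fcgr1, Fcgr3 and Fcgr4 summed) to Fcgr2b was 3.97 and 4.19 in KL and 2.69 and 2.20 in KLG4 TRMs. In MDMs it was 4.84 and 3.96 in KL and 3.65 and 2.66 in KLG4. In both it was lower in KLG4 without overlap. In tumor cells it was 7.44 and 6.44 in KL and 8.74 and 7.83 in KLG4, higher in KLG4 without overlap. These ratios are given as a description, with no test. Lack of overlap was common, as 9 of 11 ratios compared did not overlap in tumor cells, 8 in TRMs and 6 in MDMs. With all tumor libraries the log2 difference was 0.26, and it was 0.45 with 0.1 RPKM added to both terms and 0.15 without KL replicate 2. In MDMs it was -0.49 with all libraries and -0.27 without KLG4 replicate 2. Much of the ratio is Fcgr3, whose own ratio to Fcgr2b was 3.01 and 3.22 in KL and 2.05 and 1.79 in KLG4 TRMs.

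**Figure D4:**
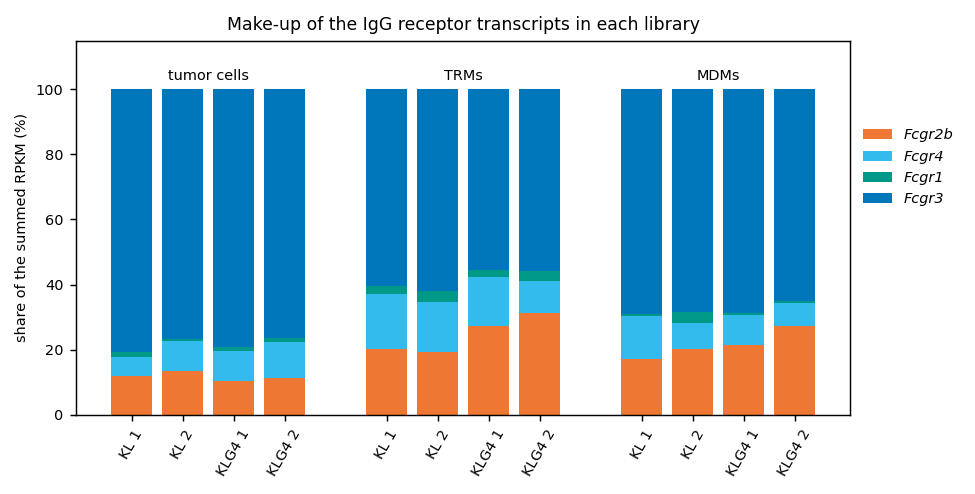
Share (%) of Fcgr2b (orange), Fcgr4 (light blue), Fcgr1 (green) and Fcgr3 (blue) in the summed RPKM of the 4 genes, with 1 bar for each of the 12 libraries. In TRMs the Fcgr2b share is 20.1% and 19.3% in KL and 27.1% and 31.2% in KLG4, and in tumor cells it stays between 10.3% and 13.4%.

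Relative to the gamma chain, Fcgr4 was lower in KLG4 TRMs, with a ratio of 0.491 and 0.449 in KL and of 0.403 and 0.352 in KLG4. The ratio of Fcgr3 to Fcer1g overlapped between genotypes in TRMs (1.76 and 1.81 in KL, 1.48 and 2.00 in KLG4) and in MDMs (1.33 and 1.29 in KL, 1.20 and 1.57 in KLG4). In tumor cells it was 1.23 and 1.40 in KL and 1.47 and 1.61 in KLG4.

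Across populations, levels are given side by side without a test, since each table was scaled on its own. Fcgr3 had its highest group means in MDMs (182 RPKM in KL and 179 RPKM in KLG4) and TRMs (154 and 150 RPKM), and these 4 groups overlapped as neighbours in that order. KLG4 tumor cells followed at 36.01 RPKM, which was 24.1% of the KLG4 TRM mean and 20.2% of the KLG4 MDM mean. KL tumor cells were last at 3.83 RPKM. Fcer1g was in the same order, with MDMs at 139 and 129 RPKM, TRMs at 86.1 and 87.0 RPKM, KLG4 tumor cells at 23.4 RPKM and KL tumor cells at 2.84 RPKM, and here MDMs and TRMs did not overlap.

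Fcgr2b was highest in KLG4 TRMs (78.7 RPKM) and KLG4 MDMs (66.7 RPKM), followed by the KL groups at 49.5 and 48.8 RPKM, and neighbours in this order overlapped. KLG4 tumor cells, at 5.002 RPKM, had 6.35% of the KLG4 TRM mean, a smaller share than for Fcgr3. For comparison, Ptprc in KLG4 tumor cells was 36.4% of its mean in KLG4 TRMs and 25.0% of that in KLG4 MDMs. Fcgr4 and Fcgr1 had their highest group means in TRMs, although KL MDMs overlapped with KLG4 TRMs for both genes. Fcgr4 means ran from 40.5 RPKM in KL TRMs to 0.403 RPKM in KL tumor cells, and Fcgr1 means from 7.36 RPKM in KL TRMs to 0.0466 RPKM in KL tumor cells.

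Fcgrt had higher levels in TRMs than in MDMs. Its means were 45.1 and 42.7 RPKM in KL and KLG4 TRMs but 8.17 and 4.98 RPKM in MDMs. KLG4 tumor cells, at 13.6 RPKM, lay between, although the range of KL MDMs (2.95 to 13.4 RPKM) overlapped with theirs. Pigr was instead highest in tumor cells, with 79.2 and 38.8 RPKM in KLG4 and KL tumor cells and 0.572 to 2.29 RPKM in the 4 TRM and MDM groups.

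Over the 12 libraries on the log2(RPKM + 0.1) scale, the genes most like each member were named among 11504 genes, as a description in which libraries of a population share much of the correlation. Fcgr3 and Fcer1g were both most like Myo1f, a myosin of leukocytes (r = 0.996 for each). Fcgr2b was most like Tmem154, P2ry13 and Bcl2a1d (r = 0.993 to 0.995), and Fcgr4 most like Parvg, Mcemp1 and Laptm5 (r = 0.986 to 0.987). Fcgr1 was most like Clec4a2, Msr1, a scavenger receptor of macrophages, and Klra2 (r = 0.984 to 0.988). Fcgrt was most like Colec12, a scavenger receptor, followed by the MHC class II genes H2-Aa and H2-Eb1 (r = 0.982 to 0.990). Pigr was most like Cdkn1c, Aldh1a1 and Serpinh1 (r = 0.992 to 0.995), and its correlation with the other 6 members was between -0.88 and -0.42.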

How the data were processed

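Poly(A) RNA of sorted cells was sequenced without strand information as paired-end reads. According to the methods, reads were trimmed with Trim Galore 0.6.4, aligned with HISAT2 2.0.5 to GRCm38 and counted per gene with featureCounts 2.0.0. The authors deposited RPKM values, 1 table per population, with no further factor between libraries. The deposited tables also hold the authors' own log2 fold changes, p-values and related columns, which were not used. The 5 other samples were not analysed here.

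Each table was tested alone with limma 3.58.1 (R 4.3.3, mean-variance trend) on log2(RPKM + 0.1) after removal of genes that did not reach 1 RPKM in 2 of the 4 libraries, two-sided, with Benjamini-Hochberg adjustment over the table and a call at 0.05. This understates changes of low genes. A test on the log scale was used because the tables hold no counts, and the count model of the study was not repeated. Whole reads were recovered from RPKM and gene length (100% of values under 2000 reads within 0.05 of a whole number), and used for depth and for limma-voom as an alternative. Mates of a pair were mostly counted each, so counting noise exceeds what read totals imply. The tests were checked on simulated data. Replicates are separate samples per the labels, which do not name animals. For the tumor cell RNA sequencing the study gives 2 mice per group, and for TRMs and MDMs the origin of replicates is not given in the sources used here. The members and lists were chosen with earlier results of these data known. Named genes were the members, Gpx4, the 4 genes of highest mean level per list as examples and the 3 genes most like each member, and other genes named were chosen after their values were seen. Alternatives covered the pseudocount, the filter, scaling, the trend, the replicate block and leaving out each library, and for ratios 0.1 RPKM added to both terms. Motifs and shared coding sequence were searched in RefSeq promoter windows and GENCODE M21 transcripts.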

Additional observations from a re-analysis of the deposited data

Results flagged for a closer look

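Some values were higher in both KLG4 libraries than in either KL library of a population, and lower in both in another population. None of these differences between populations was tested. Pigr had a log2 fold change of 1.03 in tumor cells, of -1.48 in TRMs and of -1.36 in MDMs, which are 2.51 and 2.39 apart. Fcgr4 was at 3.41 in tumor cells and -0.31 in TRMs, 3.71 apart, and the TRM value was -0.49 without KLG4 replicate 1 and -0.12 without KLG4 replicate 2. Fcgr1 was at 2.30 in tumor cells (without the filter) and -1.09 in MDMs, 3.39 apart, and the MDM value was -0.30 without KL replicate 2.

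The same held for ratios within a library, given as the log2 difference of KLG4 minus KL. The ratio of the summed activating receptors to Fcgr2b differed by 0.26 in tumor cells, -0.74 in TRMs and -0.49 in MDMs, so tumor cells were 1.00 and 0.75 above TRMs and MDMs. The tumor value was 0.45 with 0.1 RPKM added to both terms, 0.15 without KL replicate 2 and 0.18 without KLG4 replicate 1, and the MDM value was -0.27 without KLG4 replicate 2. The ratio of Fcgr4 to Fcgr2b differed by 0.67 in tumor cells and -0.96 in TRMs, 1.63 apart, and the TRM value was -0.54 without KLG4 replicate 2. That of Fcgr4 to Fcer1g differed by 0.69 and -0.32, 1.00 apart, but the tumor value was 0.33 with 0.1 RPKM added, and 0.25 or 1.12 when KL replicate 1 or 2 was left out. The ratio of Fcgr1 to Fcer1g differed by 0.62 in tumor cells and -1.03 in MDMs, 1.65 apart, with 4 Fcgr1 reads in each KL tumor library. With 0.1 RPKM added to both terms the tumor value was -0.77, so the directions were no longer opposite, while without KL replicate 2 it was 0.26 in tumor cells and -0.057 in MDMs. The ratio of Pigr to Epcam differed by 2.31 in tumor cells and -1.70 in TRMs, 4.01 apart. The ratio of Fcer1g to Tyrobp differed by -0.41 in tumor cells, 0.19 in TRMs and -0.29 in MDMs, so TRMs were 0.48 above MDMs, and tumor cells minus TRMs came to -0.60. Without KLG4 replicate 2 the tumor value was -0.27, and without KL replicate 2 the TRM value was 0.12.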

How the results depend on the processing

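In tumor cells the number of members called was 4 to 7 under every alternative run (7 without the filter, where Fcgr1 had an adjusted p of 0.0011, and 4 to 6 when a library was left out). Over the whole table, 5543 genes were called (2843 higher), 3284 with the filter at a mean of 5 RPKM and 1927 to 7372 when a library was left out. Quantile scaling called 2585 higher and 4130 lower, against 2843 and 2700, and rescaling outside mitochondrial genes 3062 and 1948.

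In TRMs no member was called except Pigr (1 call) with limma-voom on recovered reads. Over the table, 198 genes were called (150 higher and 48 lower), 490 and 122 with a pseudocount of 1 and 0.01, 120 without the filter, 557 with the filter at a mean of 5 RPKM, 60, 30 and 31 with quantile, TMM and mitochondrial scaling, 12 without the trend, 758 with limma-voom and 113 to 2382 when a library was left out. TMM scaling called 8 higher and 22 lower, quantile scaling 23 and 37, mitochondrial rescaling 8 and 23, and limma-voom 407 and 351. The log2 fold change of Fcer1g in TRMs, 0.01, was -0.23, -0.38, -0.38 and -0.37 with quantile, TMM and mitochondrial scaling and limma-voom, and -0.078 to 0.10 when a library was left out. Leaving out a library gave -0.47 to 0.33 for Fcgr1, -0.18 to 0.082 for Fcgr3 and -0.25 to 0.11 for Fcgrt.

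In MDMs no member and no gene was called, except without KL replicate 1, where 3 members and 2682 genes were, so leaving out a library gave 0 to 3 and 0 to 2682. The unadjusted p was under 0.05 for 706 genes. The log2 fold change of Fcgr3 was 0.025 under quantile scaling and -0.23 to 0.17 when a library was left out. That range was -0.89 to 0.14 for Fcgr4, -0.014 to 0.80 for Fcgr2b, -0.25 to 0.055 for Fcer1g and -1.41 to 0.74 for Fcgrt. The cause of these shifts was not tested.

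With the replicate block, 6, 0 and 0 members and 5388, 470 and 0 genes were called in tumor cells, TRMs and MDMs. Same-numbered libraries did not deviate together (correlations of 0.02, -0.06 and 0.05), so they share only a number. With 2 libraries a group, differences under the spread of a pair could not be seen. Values of Fcgr1 in KL tumor cells rest on 4 reads a library.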
